A study of Mus musculus with 6 samples.

Results

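The 10 genes described here belong to bone morphogenetic protein (BMP) signalling and were read in differentiating mouse embryonic stem (ES) cells with and without a knockdown of Atad2. They were the ligand gene Bmp4, the receptor gene Bmpr1a, the inhibitor genes Smad6, Smad7 and Bambi, and the target genes Id1, Id2, Id3, Msx1 and Msx2. The genes were chosen by name, and every probe whose platform annotation gave 1 of these symbols was taken, which led to 15 of the 45281 probes of the array and to 10 of the 19057 genes with a probe. Above background on at least 3 of the 6 arrays were 9 of these probes, and they stood for 7 of the 10 genes, namely Bmp4, Bmpr1a, Smad6, Id1, Id2, Id3 and Msx1. The probes of Msx2, Smad7 and Bambi were above background on 0 arrays.

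BMPs are secreted dimers of the transforming growth factor beta superfamily. A BMP holds together type I receptors such as Bmpr1a and type II receptors such as Bmpr2, the receptors phosphorylate Smad1, Smad5 and Smad9 in the cytoplasm, and these enter the nucleus with Smad4. Among the genes they switch on are the Id genes, whose proteins bind basic helix-loop-helix (bHLH) factors and keep them off DNA, the Msx homeobox genes, and Smad6, Smad7 and Bambi, whose products hold the pathway back. In mouse ES cells BMP acts together with leukaemia inhibitory factor (LIF) to maintain self-renewal, and in the early embryo Bmp4 is needed for mesoderm.

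Both groups were ES cells stably transduced with a lentiviral short hairpin RNA (shRNA) and selected with puromycin, and both had spent 3 days without LIF, which starts differentiation. The hairpin targeted Atad2, a bromodomain ATPase of chromatin, in shAtad2 cells, and was an inactive sequence in shCtrl cells. By the study's methods each group was a pool of transduced cells of 1 clone of a 46C line in which the Atad2 gene carried a tag, so that all arrays share this line and a single hairpin stands for the knockdown. Each group had 3 arrays of an Illumina MouseWG-6 v2.0 beadchip, and the labels leave unsaid whether the replicates were separate cultures. The p-values therefore reflect the spread among these arrays alone, part of which may be technical.

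The arrays were alike in brightness, with a median unnormalized intensity between 130.0 and 138.9 and with 39.3% to 40.9% of probes above background. The third replicate of each group stood apart, at 26.1 (shAtad2) and 26.8 (shCtrl) on the first principal component against -15.4 to -11.9 for the other 4 arrays. Atad2 itself read 5.69, 5.64 and 5.41 in shAtad2 and 6.28, 6.48 and 6.39 in shCtrl, with no overlap (limma adjusted p = 0.31), and the control genes Actb and Gapdh differed by -0.02 each, with signs that turned under several alternatives. All levels below are normalized log2 intensity in the order of replicates 1, 2 and 3, and differences are shAtad2 minus shCtrl. The level of 1 probe cannot be set against that of another, and fewer cells of a type cannot be told apart from less RNA per cell.

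Among the BMP genes the largest difference between the groups was that of Msx1, which was lower in shAtad2 cells. Of the 7 genes measured, 4 were higher and 3 lower in shAtad2 cells, and their median difference was 0.07, beside -0.00 over all 10072 genes tested. This split rests on the brighter of 2 Bmpr1a probes, and with the mean of the kept probes of each gene the split was 3 higher to 4 lower and the median -0.09. Id1, Id2, Id3, Bmp4 and Bmpr1a all lay within 0.21 of no difference on the log2 scale, while Msx1 was 1.18 lower, a 2.27-fold difference. With limma and Benjamini-Hochberg adjustment over all genes, 0 of the 7 passed an adjusted p of 0.05 (0% of all genes did), and 0 had an unadjusted p under 0.05 (7.92% of all genes). Groups that did not overlap were found for 0 of the 7, against 13.5% of all genes.

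**Figure D1:**
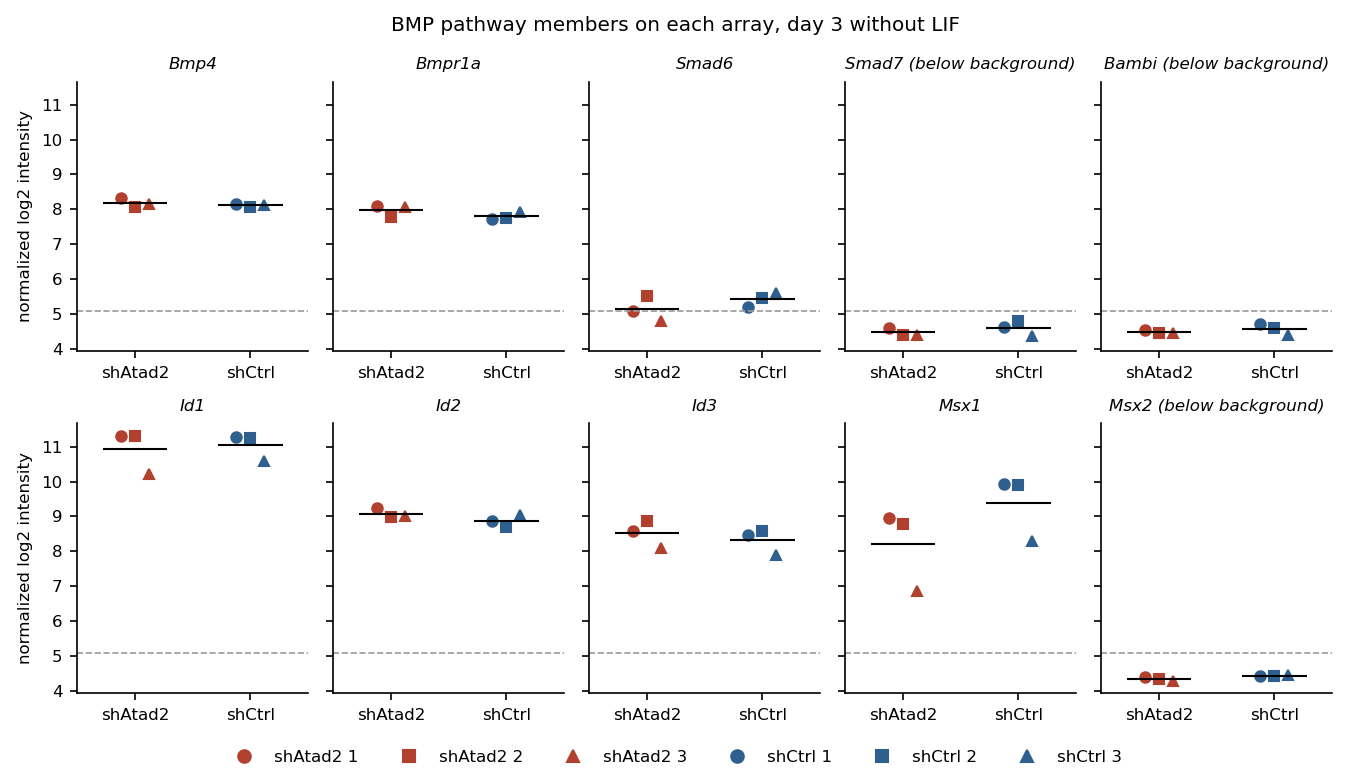
Normalized log2 intensity of the 10 BMP genes on the brightest probe of each, with the 3 shAtad2 arrays left of the 3 shCtrl arrays, a bar at the group mean and a dashed line at the mean over arrays of the lowest level among probes above background. The probes of Smad7, Bambi and Msx2 lie under that line. Msx1 was lowest on the third array of each group, at 6.84 in shAtad2 and 8.30 in shCtrl, while the Bmp4 arrays lay between 8.06 and 8.33.

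The replicate numbers of the groups were also used as pairs, since arrays of the same number deviated from their group means together (correlations 0.30, 0.29 and 0.58). Replicates 1 and 2 correlated as well crosswise (0.30 and 0.34). The pairing was thus read from these same data, and the calls made with the block depend on it. With the replicate number as a block in the limma fit, Msx1 was the 1 of 7 genes that passed, beside 0.0993% of all genes, and also the 1 of 7 with an unadjusted p under 0.05, beside 13.4% of all genes. The difference ran the same way in all 3 pairs for 3 of the 7 on the probes used (Msx1, Id3 and Bmpr1a, the last with a second probe that ran the other way in all 3 pairs), beside 34.5% of all genes.

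Bmp4, the ligand, read 8.33, 8.06 and 8.14 in shAtad2 and 8.16, 8.06 and 8.11 in shCtrl. The groups overlapped, and the first shAtad2 array was the highest. The difference was 0.07 (SE 0.13, 95% interval -0.24 to 0.38, limma adjusted p = 0.965), and it was -0.01 without the first shAtad2 replicate, so its sign rests on that array. Bmpr1a, which encodes the type I receptor that binds Bmp4, read 8.09, 7.79 and 8.07 in shAtad2 and 7.71, 7.74 and 7.93 in shCtrl on its brighter probe. The difference was 0.19 (SE 0.15, 95% interval -0.15 to 0.53, limma adjusted p = 0.843). The groups overlapped here too.

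The second Bmpr1a probe went the other way. It is dimmer and was above background on all 6 arrays, with 5.64, 5.90 and 5.25 in shAtad2 and 6.23, 6.25 and 5.75 in shCtrl. It was lower in shAtad2 in each of the 3 pairs, by a log2 difference of -0.48 (limma unadjusted p = 0.0548, and 0.00855 with the replicate block). Adjusted over all 18085 probes the p was 0.689, and 0.243 with the block. The probes disagree in direction, and the mean of both gave -0.15, so no direction can be given for Bmpr1a.

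The inhibitors were dim. Smad6, an inhibitory SMAD that competes with Smad1 and Smad4, read 5.07, 5.52 and 4.79 in shAtad2 and 5.19, 5.45 and 5.59 in shCtrl. Its probe exceeded background on 2 shAtad2 arrays and on all 3 shCtrl arrays. The third shAtad2 array was the lowest and the groups overlapped. The difference was -0.29 (SE 0.21, 95% interval -0.77 to 0.20, limma adjusted p = 0.829), and it was -0.03 without both arrays of replicate 3. Smad7, the other inhibitory SMAD, and Bambi, a pseudoreceptor without a kinase domain, had 1 probe each, not well above background in either group, and no fold is given for them.

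The 3 Id genes were measured on all arrays. Id1 read 11.31, 11.31 and 10.20 in shAtad2 and 11.27, 11.25 and 10.59 in shCtrl. The third array was the lowest in each group, and the difference of -0.09 (SE 0.33, 95% interval -0.86 to 0.67, limma adjusted p = 0.984) was 0.28 without the third shAtad2 array and 0.05 without both arrays of replicate 3. Id1 has thus no settled direction.

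Id2 read 9.23, 8.98 and 9.02 in shAtad2 and 8.87, 8.70 and 9.04 in shCtrl, a difference of 0.21 (SE 0.15, 95% interval -0.14 to 0.55, limma adjusted p = 0.829). A second bright Id2 probe differed by 0.26, and a dim one, above background on 1 array of each group, by -0.12. The first and second shAtad2 arrays were above their paired shCtrl arrays on the brightest probe, and the third pair differed by -0.02. Id3 read 8.58, 8.88 and 8.09 in shAtad2 and 8.48, 8.59 and 7.89 in shCtrl. It was slightly higher in shAtad2 in each pair, by 0.10, 0.29 and 0.21, and again lowest on the third arrays. The mean difference was 0.20 (SE 0.26, 95% interval -0.39 to 0.79, limma adjusted p = 0.937), and it was -0.02 without the third shCtrl array. Adjusted p-values with the replicate block were 0.85, 0.595 and 0.576 for Id1, Id2 and Id3.

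Msx1, a homeobox transcription factor of neural crest, limb and early mesoderm, read 8.96, 8.78 and 6.84 in shAtad2 and 9.93, 9.89 and 8.30 in shCtrl. In the unnormalized values this was an intensity of 601.6, 515.1 and 231.0 against 1190.3, 1059.9 and 406.4. Each shAtad2 array was below the shCtrl array of its own number, while the groups overlapped because the third shCtrl array lay under the first and second shAtad2 arrays. The difference was -1.18 (SE 0.63, 95% interval -2.64 to 0.28), and limma without a block gave an adjusted p of 0.726.

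Within the pairs Msx1 was lower by -0.98, -1.12 and -1.45. With the replicate block the SE was 0.15, the 95% interval ran from -1.52 to -0.84 and the limma adjusted p was 0.0481. Over 21 alternatives, most of them without a block, the adjusted p of Msx1 lay between 0.00435 and 0.972. In that fit Msx1 had rank 10 of 10072 by p-value. The call is narrow. It held with the block when both arrays of replicate 1 or of replicate 2 were left out (limma adjusted p = 0.00435 and 0.0168) and was lost without replicate 3 (0.0707), where the difference was still -1.05 (SE 0.15). It was also lost in a fit over probes rather than genes (0.0832), with the difference at -1.18 as before. The sign was kept in all 21 alternatives, and with single arrays left out the difference lay between -1.72 (without the third shCtrl array) and -0.51 (without the third shAtad2 array). The second Msx1 probe, annotated to another transcript record, was above background on 0 shAtad2 and 2 shCtrl arrays and was at least 1.19-fold lower in shAtad2 by the group means. Its groups overlapped, and the third pair differed by 0.01. Msx2, the close relative of Msx1, had 1 probe that was not well above background on any array.

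**Figure D2:**
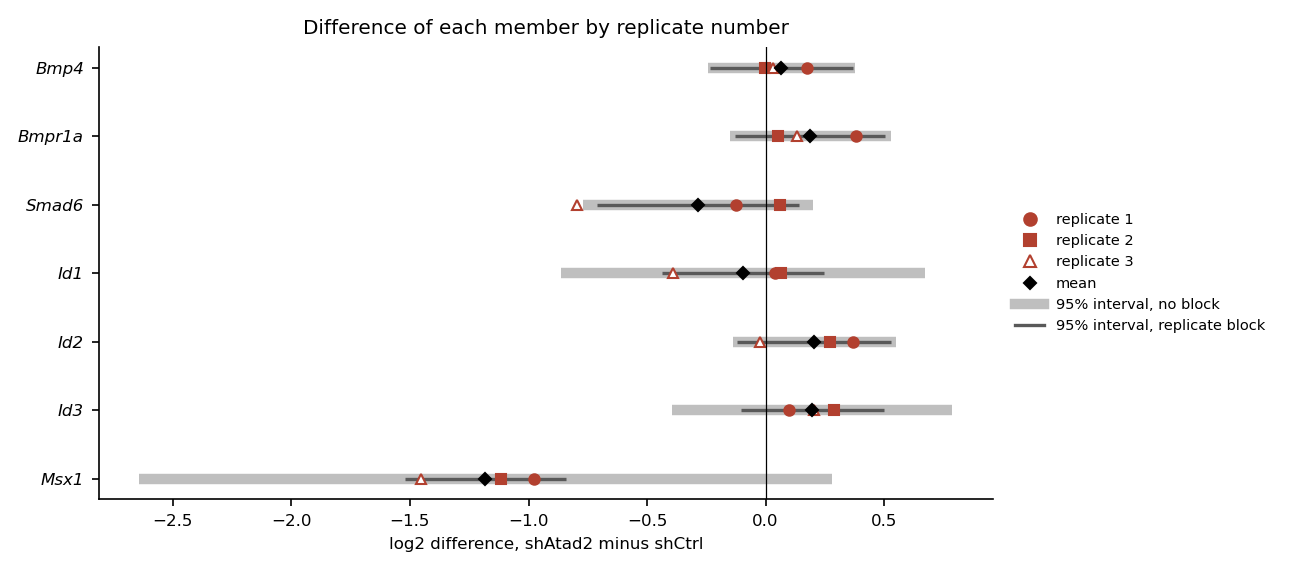
Log2 difference, shAtad2 minus shCtrl, of each measured BMP gene in replicate pairs 1, 2 and 3, with the mean and its 95% intervals without a block (broad grey) and with the replicate block (thin dark). The pairs of Msx1 lie at -0.98, -1.12 and -1.45, and its interval excludes 0 only with the block, while the intervals of the other 6 genes include 0 in both fits.

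**Figure D3:**
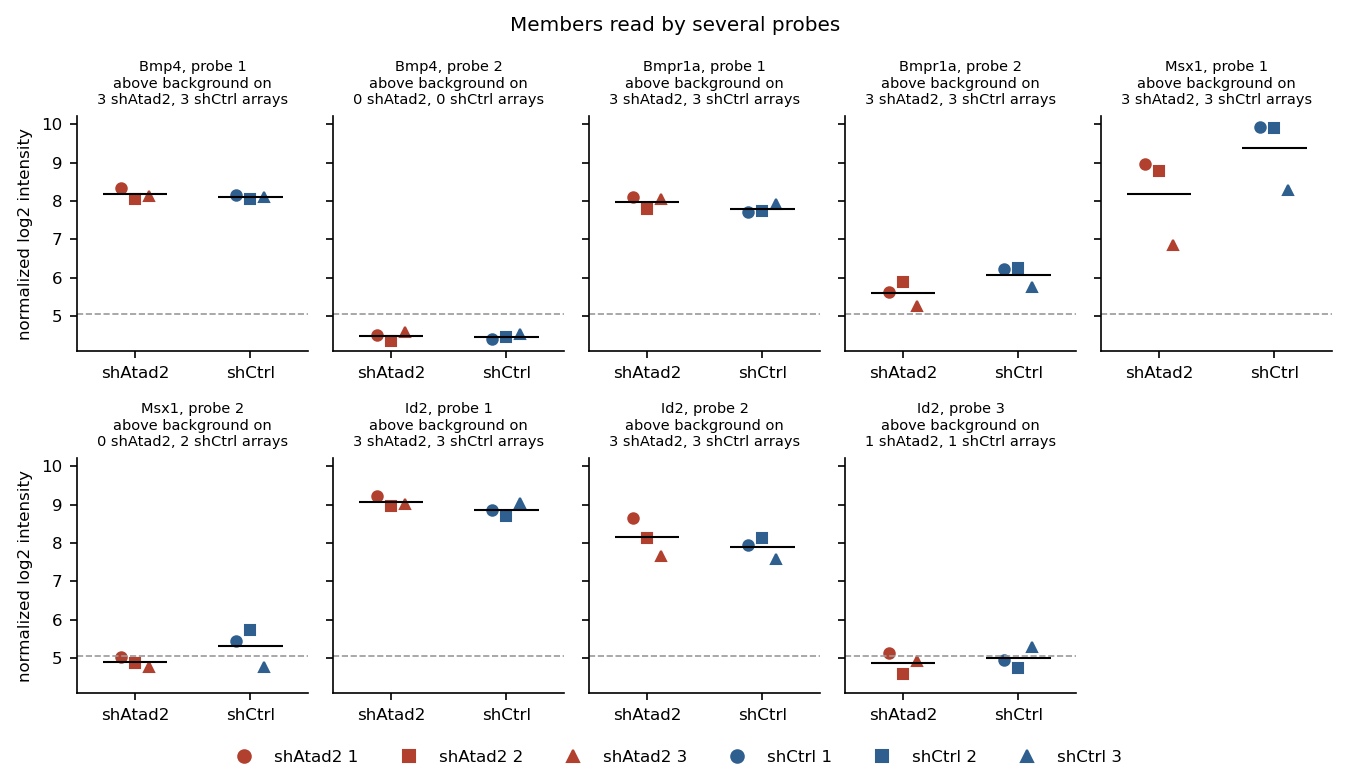
Normalized log2 intensity on every probe of the genes read by several probes, shAtad2 left of shCtrl, with a bar at the group mean and a dashed line at the mean over arrays of the lowest level among probes above background (5.02 to 5.10 on single arrays). The probes of Bmpr1a differ by 0.19 and -0.48, whereas both bright Id2 probes are higher in shAtad2, by 0.21 and 0.26.

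The sequences around the start sites of Msx1, Id2 and Id3, all known BMP targets, are shown. These 3 genes were picked after their differences of -1.18, 0.21 and 0.20 were seen. Without a block their limma adjusted p-values were 0.726, 0.829 and 0.937. Any link between sequence and difference was not tested. SMAD proteins of the BMP branch are known to bind the GC-rich motif GGCGCC and Smad4 to bind GTCT. RefSeq promoters of build GRCm38.p6 were read for 7 of the 10 genes (Bmp4, Bmpr1a, Msx1, Msx2, Id2, Id3 and Smad6). Each window held 300 bases, mostly upstream of the start. The Msx1 window is chr5:37824536-37824835, the Id2 window chr12:25096043-25096342, both on the minus strand, and the Id3 window chr4:136143572-136143871 on the plus strand. They read, 5′ to 3′ and with capitals for GGCGCC and for GTCT or its complement AGAC:
Msx1: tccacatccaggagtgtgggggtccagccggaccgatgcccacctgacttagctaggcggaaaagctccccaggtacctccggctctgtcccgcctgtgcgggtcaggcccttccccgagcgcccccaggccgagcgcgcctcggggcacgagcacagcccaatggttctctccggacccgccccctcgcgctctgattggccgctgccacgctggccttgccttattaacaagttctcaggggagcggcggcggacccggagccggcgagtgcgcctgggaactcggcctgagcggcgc
Id2: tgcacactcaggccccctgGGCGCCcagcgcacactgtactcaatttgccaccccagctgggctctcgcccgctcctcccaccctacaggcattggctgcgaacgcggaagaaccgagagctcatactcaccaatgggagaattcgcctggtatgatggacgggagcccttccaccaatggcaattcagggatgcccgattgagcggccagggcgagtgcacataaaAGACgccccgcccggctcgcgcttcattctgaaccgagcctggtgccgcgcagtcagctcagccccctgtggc
Id3: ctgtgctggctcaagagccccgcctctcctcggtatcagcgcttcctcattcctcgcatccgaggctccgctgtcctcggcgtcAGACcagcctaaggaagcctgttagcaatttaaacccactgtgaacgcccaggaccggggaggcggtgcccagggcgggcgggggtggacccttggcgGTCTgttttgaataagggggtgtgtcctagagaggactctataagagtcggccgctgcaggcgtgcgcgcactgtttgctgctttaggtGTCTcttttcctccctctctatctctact

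The Msx1 window held 0 matches to either motif, the Id2 window 1 of each, and the Id3 window 3 to GTCT. Over the 7 genes read, GGCGCC, its own reverse complement, was found in Id2 and Bmpr1a, beside 11.9% of all 32851 promoters. GTCT on either strand was found in 6 of them, beside 88.0%. Promoters of Id1, Smad7 and Bambi were not read, so these counts leave them out. The motifs did not overlap each other, and the composite of GGCGCC, 5 bases and GTCT, in 0.0731% of all promoters, was in 0 of the 7. A match is a description of these letters only, and binding was not measured on these arrays.

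Around these genes, the wider BMP pathway was read from lists compiled by role. Of the other ligand genes Bmp5, Bmp7 and Gdf3 were measured, and 4 of 17 ligand genes were in all. Bmp7, a ligand of kidney and eye development, was dim and read 5.33, 5.61 and 4.81 in shAtad2 and 6.09, 5.40 and 5.68 in shCtrl, a difference of -0.47 (SE 0.25, limma adjusted p = 0.726) that lay between -0.66 and -0.25 with single arrays left out. Bmp5 differed by 0.18 (SE 0.16), on a dim probe above background on 3 shAtad2 arrays and 1 shCtrl array. The probe of Bmp2, like those of 8 further ligand genes, was above background on 0 arrays.

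Receptors and co-receptors were measured for 8 of 12 genes, with 6 higher and 2 lower and a median difference of 0.11. The 6 include Bmpr1a on its brighter probe, for which no direction can be given, and the 2 include Eng at -0.002. Bmpr1b, a type I receptor like Bmpr1a, read 6.35, 5.65 and 6.24 in shAtad2 and 5.64, 5.23 and 5.44 in shCtrl. The groups did not overlap, all 3 pairs were higher, and the difference was 0.64 (SE 0.21, limma unadjusted p = 0.0172, adjusted p = 0.523, and 0.12 with the block). The Bmpr1b probe was dim, and its difference depended on the processing. It was 0.22 with the authors' processed values and 0.67 with scaling to a common median. Bmpr2, the type II receptor, read 9.41, 9.25 and 9.57 in shAtad2 and 9.20, 9.05 and 9.04 in shCtrl, again without overlap, a difference of 0.31 (SE 0.14, limma adjusted p = 0.650). Of these receptors 0 passed the threshold in either fit, and groups did not overlap for 2 of the 8, beside 13.5% of all genes.

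By limma 0 of the signal carriers and of the inhibitors inside the cell passed the threshold, with the block or without it. Smad1 and Smad5, which carry the signal to the nucleus, differed by 0.13 (SE 0.23) and 0.11 (SE 0.15), and both signs turned without the third shCtrl array. Inhibitors inside the cell and at the membrane were measured for 9 of 12 genes, with 7 higher and 2 lower and a median of 0.12. Tob1, which restrains SMAD signalling, differed by 0.29 (SE 0.19) and Skil, a SMAD corepressor, by 0.25 (SE 0.16). Secreted antagonists and modulators were measured for 7 of 19, with a median of -0.09, and the probes of 10, those of Nog, Grem1 and Cer1 among them, were above background on 0 arrays. Bmp1, a protease that frees BMPs from the antagonist chordin, differed by 0.56 (SE 0.39, limma adjusted p = 0.807), and Bmper, a secreted BMP binder, by -0.46 (SE 0.46). The Bmper probe was dim and above background on 2 arrays of each group. With single arrays left out Bmp1 lay between 0.22 (without the third shCtrl array) and 0.92 (without the third shAtad2 array), and Bmper between -0.88 (without the third shCtrl array) and -0.08 (without the first shCtrl array). Of 8 bHLH partners of the Id proteins 4 were measured, and Tcf4 and Tcf12 differed by 0.15 (SE 0.13) and 0.08 (SE 0.13).

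Of 26 target genes, 16 were measured, 11 of them lower and 5 higher in shAtad2, with a median of -0.31, beside -0.00 over all genes. Without the members among them, 8 of 11 were lower and the median was -0.41. By limma 0 of the 16 passed (0% of all genes), and 0 had an unadjusted p under 0.05 (7.92% of all genes). With the replicate block 2 passed, Msx1 and Cdx2, beside 0.0993% of all genes, and at an unadjusted p under 0.05 there were 7 lower and 1 higher of the 16, beside 13.4% of all genes in either direction. The list was chosen with earlier results of these data known, so these counts are a description and no test. The third array less the others of its group was -0.93 in shAtad2 and -0.77 in shCtrl by the median of the 16, so the genes are not independent. Cdx2, a caudal homeobox gene of trophectoderm and the posterior embryo, read 8.99, 8.88 and 5.43 in shAtad2 and 10.08, 9.90 and 6.89 in shCtrl, a difference of -1.19 (SE 1.12, limma adjusted p = 0.899, and SE 0.14 with adjusted p = 0.0479 with the block). Its difference lay between -2.22 without the third shCtrl array and -0.02 without the third shAtad2 array, omissions that leave 1 array of replicate 3 without its pair, and it was -1.05 (SE 0.13) without both. Like Msx1, Cdx2 was lower in each pair, and its call was lost with the block when replicate 3 was left out (adjusted p = 0.0707). Over its alternatives the adjusted p of Cdx2 was 0.00641 to 0.998.

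Others of this list read less far apart, though Tbx3 came near at -1.01 (SE 0.55). Cdx1 differed by -0.65 (SE 0.34), while 5 of the 16 were higher. Dlx3, a homeobox gene of ectoderm, differed by -0.41 (SE 0.21) and Msx3, a relative of Msx1 expressed in the dorsal neural tube, by -0.34 (SE 0.18), the 1 gene of the 16 whose groups did not overlap (13.5% of all genes). With single arrays left out Dlx3 lay between -0.60 (without the third shCtrl array) and -0.22 (without the first shCtrl array), and Msx3 was -0.16 without the second shAtad2 array. Without both arrays of replicate 3 10 of the 16 targets were lower, and with single arrays left out between 8 (without the third shAtad2 array) and 12 (without the third shCtrl array). Without the first or the second shCtrl array 9 were lower.

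**Figure D4:**
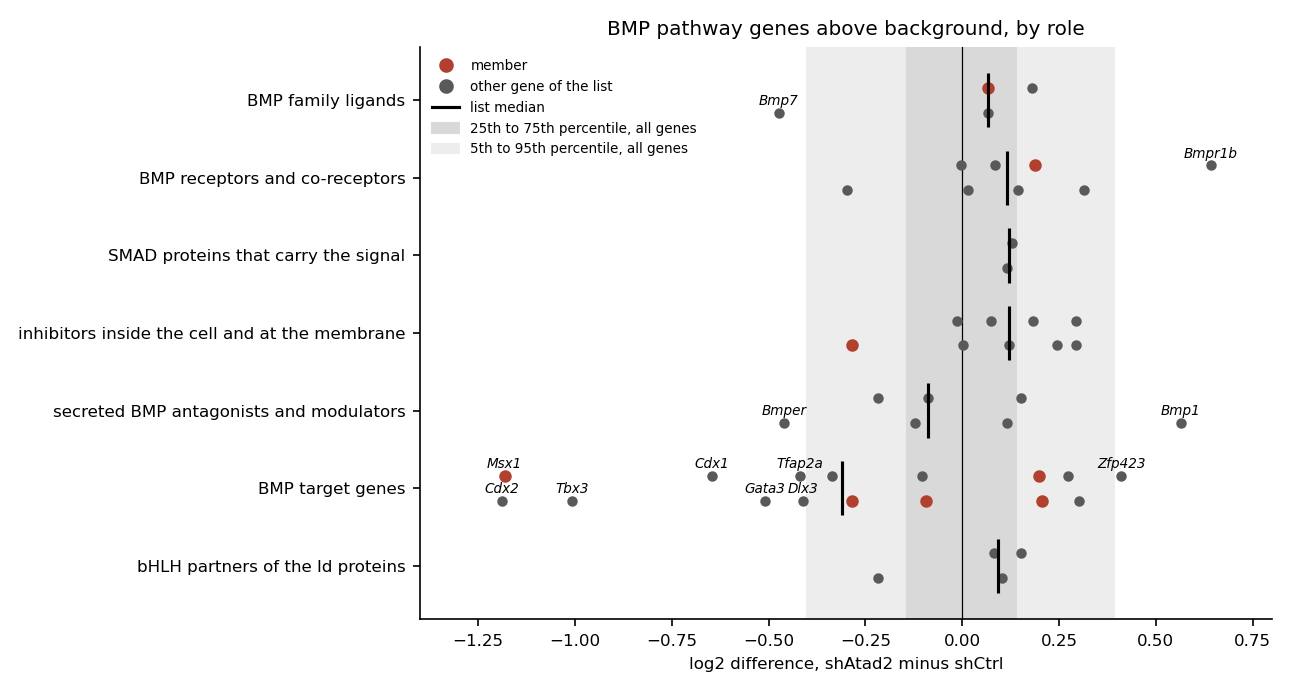
Log2 difference, shAtad2 minus shCtrl, of the measured genes of 7 BMP lists, with the measured genes of the 10 in red (Smad6 is on 2 lists), other genes in grey, a bar at each list's median and bands for the 25th to 75th (-0.14 to 0.14) and 5th to 95th (-0.40 to 0.39) percentiles over all genes. The median of the target genes is -0.31 and those of the other lists lie between -0.09 and 0.12, and genes far from 0 are labelled (Gata3, Tfap2a and Zfp423 after their values were seen).

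Markers of cell types were read beside these genes. The summed levels below take in every gene of a list with a probe, also those below background, and the brightest probes weigh most in them. By limma 0 of the markers passed without a block (0% of all genes). With the replicate block 0.0993% of all genes passed. Among the markers 1 of streak and mesoderm (lower), 1 of trophectoderm (Cdx2 itself, lower) and 1 of neurectoderm (higher) did. Over all genes 5063 were lower and 5009 higher. Primitive streak and mesoderm markers were lower in 7 of 8 genes, with a median difference of -0.59, and their summed linear level was 2448 to 5555 in shAtad2 and 5104 to 7722 in shCtrl. Trophectoderm markers, which include Cdx2, were lower in 5 of 5 (sums 1933 to 3038 in shAtad2 and 2725 to 4119 in shCtrl), with Elf5, Hand1 and Ascl2 on 0 arrays. Of the 5, Krt7 differed by only -0.01 and was above background on 2 arrays of each group. Neurectoderm markers were higher in 6 of 6 measured, of a list of 8 (5553 to 6163 in shAtad2 and 3719 to 4073 in shCtrl). Pax6 was above background on 0 arrays and Sox1 on fewer than 3. Of the 6, Otx2 differed by only 0.17. Of 9 markers of neural crest and roof plate, tissues where Msx1 is known to be expressed, 3 were measured, and Pax3, Pax7, Foxd3, Snai2, Lmx1a and Wnt1 were above background on 0 arrays. The sums over all 9, dim probes included, were 234 to 332 in shAtad2 and 266 to 416 in shCtrl. Markers of endoderm (3 of 8 measured, sums 595 to 631 in shAtad2 and 596 to 801 in shCtrl) and of fibroblasts (5 of 9 measured, 4 higher, 2857 to 3200 in shAtad2 and 2276 to 2380 in shCtrl, with Col1a1, Col1a2, Col3a1 and Lum on 0 arrays) were also read. All 8 ES cell markers were above background, with 6 lower in shAtad2 (22142 to 22827 in shAtad2 and 24035 to 27035 in shCtrl). The part of these cell types in the Msx1 and Cdx2 differences was not tested.

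The measured genes differed in how far the third arrays stood from the first and second of their own group. The level of Msx1 on the third array less its mean on the other arrays was -2.02 in shAtad2 and -1.61 in shCtrl. For Id1 these values were -1.11 in shAtad2 and -0.67 in shCtrl, and for Id3 -0.63 in shAtad2 and -0.64 in shCtrl. Id2 (-0.09 in shAtad2 and 0.26 in shCtrl), Bmp4 (-0.06 in shAtad2 and -0.01 in shCtrl) and Bmpr1a (0.13 in shAtad2 and 0.21 in shCtrl) moved less, and Smad6 moved -0.50 in shAtad2 and 0.26 in shCtrl. The offset of the third arrays was thus shared by Msx1, Id1 and Id3 in both groups.

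Over the 6 arrays, which share the offset of the third replicates, the level of Msx1 correlated with that of Id1 at 0.87 and with that of Id3 at 0.56, and Id1 with Id3 at 0.84. Bmp4 correlated with Id2 at 0.73 and with Msx1 at -0.01. Among 10065 other genes, those most like Msx1 were S100a10 (0.993), an annexin partner, the caudal homeobox gene Cdx1 (0.99), the T-box gene Tbx3 (0.99), the RNA-binding protein gene Rbmx (0.989) and the lipid droplet gene Plin5 (0.988). Those most like Bmp4 were Helq (0.974), a DNA helicase, the transcriptional cofactor gene Cited4 (0.966), Bbs12 (0.95), a chaperonin-like gene of the cilium, the autophagy gene Epg5 (0.949) and the angiogenic factor gene Aggf1 (0.941). All are Pearson correlations over 6 arrays and describe these arrays only.

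The 5 genes most like Msx1 were picked by their correlation with it over these arrays, so they share its pattern by that choice. They were lowest on the third array of each group and lower in shAtad2 within each pair. Of these, Cdx1 and Tbx3 are also on the list of target genes above. Cdx1 read 5.82, 5.63 and 4.75 in shAtad2 and 6.24, 6.44 and 5.46 in shCtrl, a difference of -0.65 (SE 0.34). Tbx3 read 7.71, 7.80 and 5.83 in shAtad2 and 8.52, 8.48 and 7.36 in shCtrl, a difference of -1.01 (SE 0.55). With the block their limma adjusted p-values were 0.12 for Cdx1 and 0.106 for Tbx3, and Tbx3 passed with the block when replicate 1 or replicate 2 was left out (0.0216 and 0.0300) but not without replicate 3 (0.104). Without the third shAtad2 array alone Tbx3 differed by -0.36 and Cdx1 by -0.32, and without both arrays of replicate 3 Tbx3 differed by -0.74 and Cdx1 by -0.61. The genes like Bmp4, picked in the same way, were highest on the first shAtad2 array, and their differences were between 0.06 and 0.22.

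**Figure D5:**
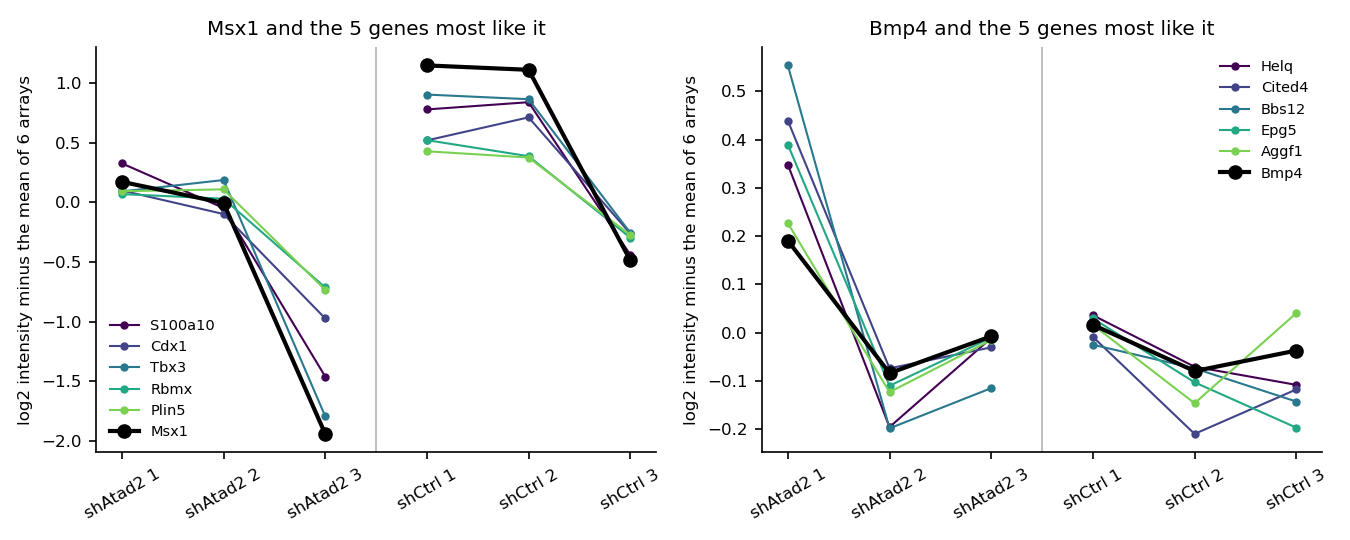
Log2 level of Msx1 and of Bmp4 (black) and of the 5 genes most like each (coloured), each less its mean over the 6 arrays, with the shAtad2 arrays left of the shCtrl arrays and lines that only guide the eye. Msx1 and its likes are lowest on the third shAtad2 array, and Bmp4 and its likes are highest on the first.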

How the data were processed

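Total RNA of 3 shAtad2 and 3 shCtrl samples was read on Illumina beadchips. The authors deposited unnormalized intensity per probe, a detection p-value per probe and array, and a table of processed intensity whose 6 columns share a median of 141.1 on a linear scale. The sources used here do not name the scanner software or the normalization. Intensity was background-corrected with the detection p-values (nec, offset 16), quantile-normalized and log2-transformed with limma 3.58.1 in R 4.3.3. Probes with a detection p-value under 0.05 on at least 3 of 6 arrays were kept (18085 probes), and the brightest kept probe with 1 symbol stood for each of 10072 genes. Of 34885 probes with 1 symbol, 34807 took the current symbol of their Entrez identifier. Another 18 probes carried several symbols and 10378 none.

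Groups were compared with lmFit and eBayes, two-sided, with Benjamini-Hochberg adjustment over all genes, without a block and with the replicate number as a block. Same-number arrays correlated at 0.30, 0.29 and 0.58 in their deviations, above the 0.1 set for pairing, although shAtad2 1 with shCtrl 2 (0.30) and shAtad2 2 with shCtrl 1 (0.34) did as well, so that replicates 1 and 2 could as well be paired crosswise. For probes dim in 1 group, a fold is a bound, the bright group's mean against the higher, per array, of the lowest signal above background and the probe's own. Summed marker levels are sums of linear normalized intensity over every gene of a list with a probe, above background or not. The fits were tested on simulated data. Named genes were the members, per wider list those past the threshold and the 2 with the smallest p, Atad2, Actb, Gapdh, and the 5 most correlated with Msx1 and with Bmp4. Other list members were named after their values were seen. Members and lists were chosen with earlier results of these data known. The alternatives are in the closing section.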

Additional observations from a re-analysis of the deposited data

How the results depend on the processing

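By limma 0 genes passed the threshold without a block (798 at an unadjusted p under 0.05), and 1 passed without background correction, with an offset of 50, with the authors' processed values or with a trended and robust variance. With the third replicates left out 3 passed, with the replicate block 10, and with the block and both arrays of 1 number left out 13 to 67. That alternative was chosen after seeing the data. Of the members 0 passed without a block, 1 (Msx1) with it, and 0 to 1 with the block and 1 number left out. Of the wider lists without the members these counts were 0, 1 (Cdx2) and 0 to 2. The block changed no other call among the genes named. The median difference of the members, 0.07, was -0.0888 without the filter on dim probes (10 genes), -0.0946 with the mean of the kept probes, and -0.0172 to 0.147 with single arrays left out. The count of lower target genes, 11 of 16, was 17 of 25 without the filter and 7 of 11 with probes above background on all 6 arrays, where fewer genes were tested. The cause of the other shifts was not tested. The number of arrays limits the precision, and the offset and remaining background understate differences of dim probes such as those of Smad6 and Bmp7.

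Some small log2 differences turned sign. Gapdh read 0.0245 with cyclic loess, and with the mean of the kept probes Bmpr1a read -0.147, Smad1 -0.0958, Actb 0.0750 and Helq -0.0750. With single arrays left out, Bmp4 ran from -0.0122 to 0.125, Id1 from -0.317 to 0.275, Id3 from -0.0172 to 0.409, Smad5 from -0.0076 to 0.180, Smad1 from -0.0702 to 0.314, Actb from -0.1325 to 0.0340, Gapdh from -0.0469 to 0.0260, Helq from -0.0557 to 0.216, Bbs12 from -0.0759 to 0.2996 and Aggf1 from -0.0393 to 0.136. Without both arrays of replicate 3, with the block or without it, Id1 read 0.0524, while Actb kept its sign at -0.172. With the block and replicate 1 left out, Actb read 0.0080, Helq -0.0139, Bbs12 -0.0482 and Aggf1 -0.0163, and with replicate 2 left out Actb read 0.0915 and Gapdh 0.0093.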
